A study of Nothobranchius furzeri with 10 samples.

Results

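In the brain of old male turquoise killifish, 122 of 26739 counted genes had a level with low-dose rotenone that was higher in every treated library than in any control library, by at least 1.3-fold on average. These genes were chosen from the counts themselves. Levels were expressed in CPM, the count of a gene divided by the total of its library and scaled to a common total. The 200 genes most abundant in the controls were dropped, a mean of at least 1 CPM over all 10 libraries was required, the lowest rotenone value had to exceed the highest DMSO value, and the ratio of the group means had to reach 1.3. Of the 26539 genes left after the first step, 18028 met the level criteria, 404 of these, or 2.24%, also had groups that did not overlap with rotenone higher, and 122 of those reached the ratio. The separation of the groups and the size of the ratio are therefore properties of the choice and not findings.

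The turquoise killifish, Nothobranchius furzeri, is a short-lived annual fish used to study vertebrate ageing. All 10 samples were brain of male fish, aged 27 weeks, from strain MZM-0410p, 5 labelled DMSO, the solvent control, and 5 labelled rotenone at 15 pM. The labels give neither the route nor the duration of exposure, and do not say whether each sample was 1 fish. The comparison addresses how a very low dose of a respiratory chain inhibitor alters gene expression in the old brain. Rotenone blocks mitochondrial complex I, the enzyme that passes electrons from NADH to ubiquinone and so feeds the respiratory chain. Strong inhibition lowers ATP synthesis and harms dopaminergic neurons, which is why rotenone is used to model Parkinson's disease in rodents, while partial inhibition of complex I extends life in several short-lived animals. Mitochondria signal to the nucleus through metabolites, reactive oxygen species and stress kinases, so nuclear transcripts can change when the chain is slowed.

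The genes carry identifiers without names, and none of the identifiers occurred in the RefSeq gene table used here. The genes therefore could not be assigned to pathways or cell types, and neither the tissue label nor the cell composition could be checked with markers. Only 2 genes are given by identifier, the one with the highest ratio and the one with the highest control level, and the others by their rank. In whole-tissue RNA, more cells of a type and more RNA per cell cannot be told apart.

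Library totals ranged from 15536771 to 31017835 counts with DMSO and from 16693800 to 28047585 with rotenone. One library, rotenone replicate 1, stood apart from its group, and the group values it moved most are also given without it. No within-group pair of libraries agreed within sampling noise, since chi-square divided by its degrees of freedom was 13.7 to 72.4 in the 20 pairs.

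The 122 genes together took up a small part of the counts. Their share of all counts was 0.238%, 0.248%, 0.250%, 0.262% and 0.251% in DMSO replicates 1 to 5. It was 0.335%, 0.378%, 0.391%, 0.383% and 0.381% in rotenone replicates 1 to 5. The group means were 0.250% ± 0.00848 and 0.374% ± 0.0222 (SD, n = 5 each), and 0.383% ± 0.00582 (SD, n = 4) for rotenone without replicate 1. Rotenone replicate 1 had the lowest share of its group, and the other 4 rotenone libraries lay close together. Gene by gene, the median log2 ratio of a library to the DMSO mean was 0.36 in rotenone replicate 1 and 0.52 to 0.60 in rotenone replicates 2 to 5, while the DMSO libraries lay between -0.04 and 0.04. Over the 18028 genes that met the level criteria, such a median, taken after 0.5 was added to both CPM values, stayed between -0.02 and 0.02 in all 10 libraries.

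**Figure D1:**
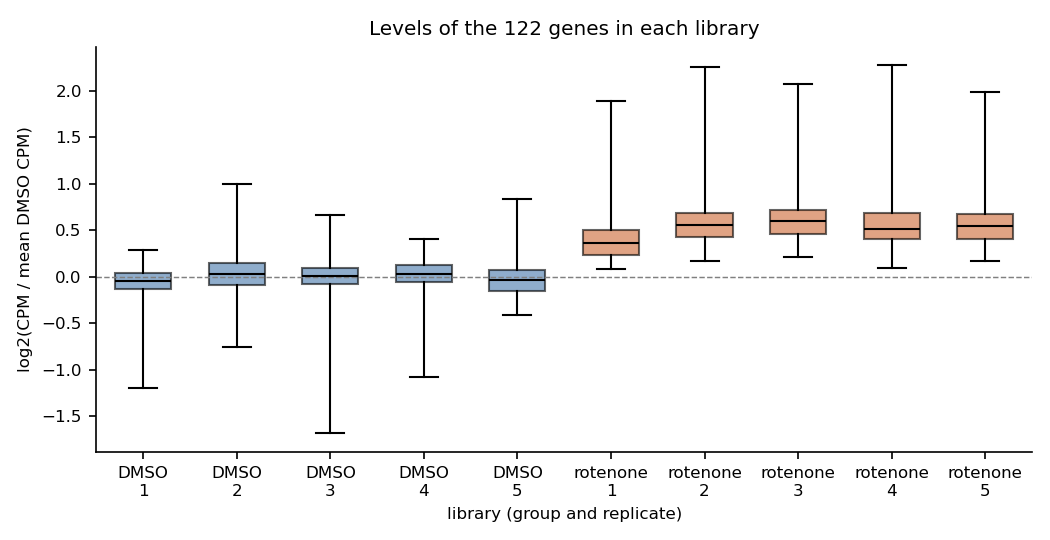
Level of the 122 genes in each library as log2 of CPM over the gene's mean DMSO CPM. Boxes give the quartiles, the line the median and the whiskers the full range over genes, with DMSO in blue and rotenone in orange. The medians of rotenone replicates 2 to 5 lie at 0.52 to 0.60 and that of rotenone replicate 1 at 0.36.

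The differences were mostly modest. The ratio of mean rotenone to mean DMSO CPM had a median of 1.43, with quartiles of 1.35 and 1.502, and reached 3.94. It was 2 or more in 8 genes, between 1.5 and 2 in 23 and under 1.5 in 91. Over all 18028 genes that met the level criteria the median ratio was 1.01, with quartiles of 0.908 and 1.09. The margin between the groups was narrow in many of the 122 genes. The lowest rotenone value was less than 1.05 times the highest DMSO value in 54 genes, at least 1.2 times in 22 and at least 1.5 times in 6. Leaving out rotenone replicate 1, which can only widen a margin, made these numbers 22, 52 and 6. At the edge of the choice, the lowest ratios inside were 1.305, 1.306 and 1.307 and the highest outside were 1.2997, 1.2995 and 1.298. The narrowest margins inside were 1.0001, 1.0001 and 1.002, and the nearest overlapping genes outside were at 0.9998, 0.9993 and 0.995. The lowest mean levels inside were 1.12, 1.19 and 1.28 CPM, and those just outside were 0.892, 0.711 and 0.698 CPM. A further 581 genes had a ratio of at least 1.3 with groups that overlapped, and 15 met the other criteria with a mean under 1 CPM.

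The gene with the highest ratio was Nfu_g_1_003210, a transcript of low abundance. Its level was 2.998, 3.04, 3.79, 3.53 and 4.51 CPM in DMSO replicates 1 to 5 and 8.83, 17.0, 15.0, 17.3 and 12.2 CPM in rotenone replicates 1 to 5. Every rotenone library was thus at least 1.96 times the highest control, with rotenone replicate 1 the lowest. Group means were 3.57 ± 0.620 and 14.055 ± 3.56 CPM (SD, n = 5 each). In edgeR the log2 fold change was 1.98 with a standard error of 0.20 and an adjusted p of 0.0021. The counts behind these values ran from 70 to 112 with DMSO and from 192 to 477 with rotenone.

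The second gene by ratio differed from the first in its controls, which fell far apart. It had 0.903, 4.11, 0.643, 0.979 and 3.67 CPM in DMSO replicates 1 to 5 and 7.63, 4.85, 5.82, 9.82 and 8.16 CPM in rotenone replicates 1 to 5. DMSO replicates 2 and 5 lay near the lowest rotenone library, rotenone replicate 2, whereas the other 3 controls were under 1 CPM. With means of 2.06 ± 1.68 and 7.26 ± 1.96 CPM (SD, n = 5 each) its ratio was 3.52, yet its edgeR adjusted p was 0.127.

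The third gene had the widest margin of the 122. Its DMSO values were 17.2, 19.8, 24.3, 26.4 and 23.2 CPM, and its rotenone values 53.6, 60.2, 63.1, 56.5 and 65.8 CPM, in replicate order. The lowest rotenone library was 2.03 times the highest control. The fifth gene, whose margin was the third widest at 1.88, had 5.41 to 7.29 CPM with DMSO, with a median of 6.35 CPM, and 13.7 to 17.0 CPM with rotenone. In this gene rotenone replicates 1, 2 and 3 were almost level at 13.7, 13.9 and 13.9 CPM, so that rotenone replicate 1 did not stand apart.

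The sixth and seventh genes by ratio stood in adjacent rows of the count table and had nearly the same ratio. The sixth had 8.54, 7.85, 10.0, 9.56 and 9.72 CPM with DMSO and 22.5, 19.1, 18.1, 21.8 and 23.2 CPM with rotenone, a ratio of 2.29. The seventh had 15.9, 14.5, 20.1, 17.2 and 16.3 CPM with DMSO and 37.9, 35.3, 38.9, 35.6 and 43.8 CPM with rotenone, a ratio of 2.28. In both genes DMSO replicate 2 was the lowest control, DMSO replicate 3 the highest control and rotenone replicate 5 the highest library. Whether the pair shares reads or a promoter was not tested.

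The fourth and eighth genes by ratio were close to the lower limit of level, and the ninth was somewhat above it. Counting error was large in these genes. The fourth and eighth had mean DMSO levels of 0.670 and 0.835 CPM, and reached the minimum of 1 CPM only through their rotenone values. The fourth had 0.507 to 0.777 CPM with DMSO and 1.29 to 1.95 CPM with rotenone, from 11 to 21 counts in the control libraries and 31 to 53 in the rotenone libraries. The eighth had 0.509 to 1.32 CPM with DMSO and 1.56 to 2.04 CPM with rotenone. The ninth had 1.35 to 1.76 CPM with DMSO, whereas its rotenone libraries fell apart, with 3.71 and 3.55 CPM in replicates 2 and 3 and 1.93, 2.04 and 2.43 CPM in replicates 1, 4 and 5. The fourth had an edgeR adjusted p of 0.0151, the eighth of 0.0928 and the ninth of 0.101.

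**Figure D2:**
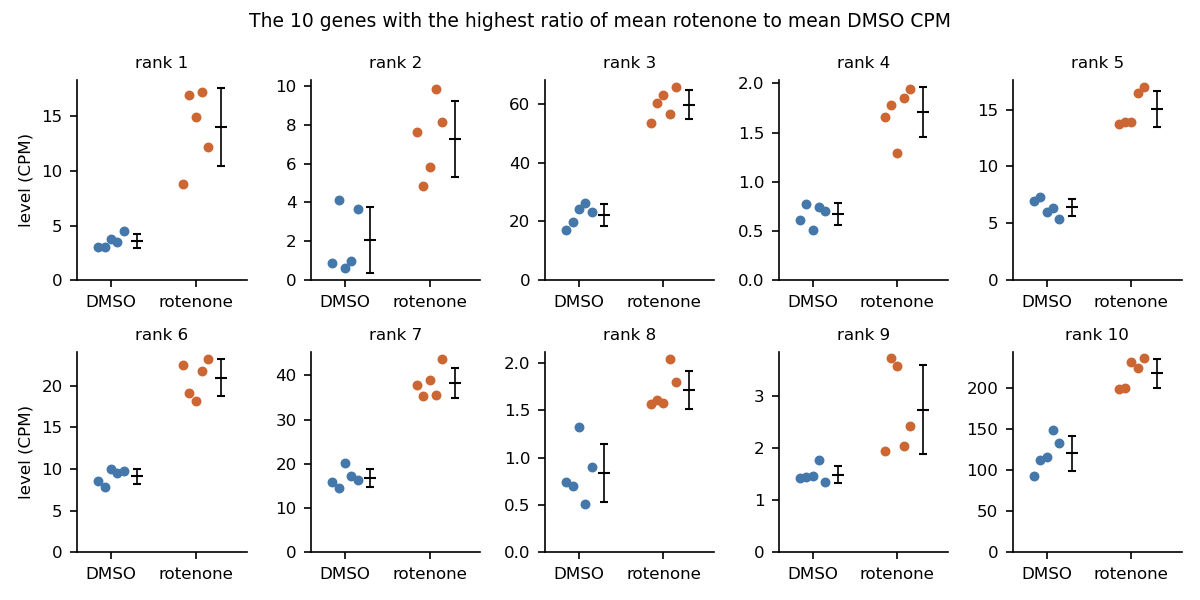
Level in CPM of the 10 genes with the highest ratio of mean rotenone to mean DMSO CPM, 1 point per library in replicate order, with the mean and SD of each group (n = 5) at its right. Controls of the gene of rank 2 split into 3 low and 2 high libraries, and rotenone libraries of the gene of rank 9 into 2 high and 3 low ones.

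Few of the 122 genes were abundant on the CPM scale, which does not correct for length. The highest control level in CPM was that of Nfu_g_1_011772, at 174, 176, 188, 245 and 188 CPM in DMSO replicates 1 to 5 and 274, 333, 329.7, 289.8 and 318 CPM in rotenone replicates 1 to 5. DMSO replicate 4 stood well above the other controls and came within 1.12-fold of rotenone replicate 1, the lowest treated library. Group means were 194 ± 29.2 and 309 ± 26.0 CPM (SD, n = 5 each). In edgeR the log2 fold change was 0.67 with a standard error of 0.10 and an adjusted p of 0.0221. Leaving out DMSO replicates 1, 3 or 5 raised the edgeR adjusted p of Nfu_g_1_011772 to 0.0693, 0.0633 or 0.0751, and leaving out rotenone replicates 2 or 3 raised it to 0.079 or 0.0808.

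The gene with the second highest control level also ranked 10 by ratio. It had 92.6, 113, 115, 148 and 133 CPM with DMSO and 198, 199, 231, 223 and 236 CPM with rotenone, again with DMSO replicate 4 the highest control. The third had 87.1, 91.3, 92.4, 107 and 92.0 CPM with DMSO and 111, 129, 158, 129 and 139 CPM with rotenone. Here too DMSO replicate 4 and rotenone replicate 1 were the closest libraries of the groups, 1.03-fold apart.

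The median control level of the 122 genes was 12.9 CPM, with quartiles of 5.54 and 26.5. The 18028 genes that met the level criteria had a median of 20.6 CPM, with quartiles of 6.92 and 52.3. The median rotenone level was 18.9 CPM in the 122 genes and 20.2 CPM in the 18028. The rule required control values below every rotenone value, so the control levels given here describe the choice too. The share of genes that were chosen varied with the control level. It was 0.647% of 1236 genes under 2 CPM, 0.889% of 2249 genes from 2 to 5 CPM, 1.07% of 2337 genes from 5 to 10 CPM and 0.913% of 3066 genes from 10 to 20 CPM. It then fell to 0.726% of 4408 genes from 20 to 50 CPM, 0.274% of 2555 genes from 50 to 100 CPM and 0.0919% of 2177 genes at 100 CPM or more. The genes chosen were thus sparse at the top of the range, where 2 genes remained. At the bottom, genes with a mean DMSO level under 1 CPM met the level criteria only through their rotenone values. The share under 2 CPM depends on this. None of the 200 dropped abundant genes met the other criteria.

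**Figure D3:**
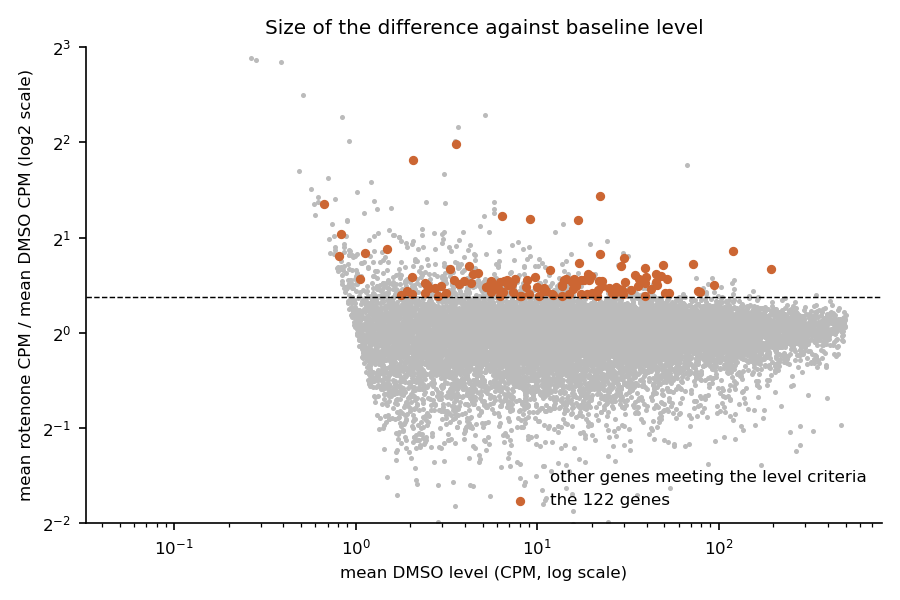
Ratio of mean rotenone to mean DMSO CPM (log2 scale) against the mean DMSO level in CPM (log scale) for the 122 genes (orange) and the other genes that met the level criteria (grey), with 21 of the latter outside the vertical range. The dashed line is the ratio of 1.3 used in the choice. Most of the 122 lie just above the line, and 2 lie at 100 CPM or more.

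Gene lengths, recovered from the relation of the deposited counts and RPKM values, were not used in the choice. The 122 genes had a median length of 2618 bases, with quartiles of 1574 and 3783, where the 18028 genes had a median of 2751 bases and quartiles of 1385 and 4763. The longest of the 122 was 7415 bases and the shortest 243. Per length, their control level, which describes the choice too, had a median of 5.91 RPKM, against 8.38 RPKM over the 18028 genes. Nfu_g_1_003210 stood at 1.396 RPKM and Nfu_g_1_011772 at 27.9 RPKM on this scale, whose highest value among the 122 was 48.6 RPKM in another gene.

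Spread within the groups was compared with the error that counting alone gives. The median coefficient of variation of the 122 genes was 10.7% over the DMSO libraries, where counting alone gave a median of 5.69%, and 12.14% over the rotenone libraries, where it gave 4.84%. Without rotenone replicate 1 the median over the rotenone libraries was 9.48%. The 18028 genes had medians of 10.4% with DMSO and 13.4% with rotenone, and 10.6% with rotenone when replicate 1 was left out. For them counting alone gave medians of 4.53% with DMSO and 4.74% with rotenone. A gene with widely spread values meets a rule of no overlap less easily, so these values describe the choice too.

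The quasi-likelihood test of edgeR was fitted over 19628 genes, all 122 among them, and its calls are given as a description because the choice used the same contrast. At an adjusted p under 0.05, 46 of the 122 genes were higher, where 0.316% of all tested genes were. These were 37.7% of the 122 genes and 74.2% of the 62 genes called higher in all. The 16 other called genes had groups that did not overlap but a ratio under 1.3. By size, 6 of the 8 genes with a ratio of 2 or more were called, 14 of the 23 between 1.5 and 2 and 26 of the 91 below. By margin, 21 of the 22 genes with a margin of at least 1.2 were called and 7 of the 54 with one under 1.05. All 122 had an unadjusted p under 0.05, as did 8.71% of tested genes in this direction. The median log2 fold change was 0.51 over the 122 genes and 0.01 over all genes tested, and the median standard error of the 122 was 0.11.

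The number called depended on single libraries. Without rotenone replicate 1, 108 of the 122 were called, beside 5.08% of all genes tested. Leaving out DMSO replicates 1 to 5 in turn gave 12, 31, 18, 19 and 16 called genes, where 0.061%, 0.168%, 0.102%, 0.101% and 0.081% of all tested genes were called higher. Leaving out rotenone replicates 2 to 5 in turn gave 11, 12, 36 and 23, beside 0.0558%, 0.0607%, 0.263% and 0.127% of all tested genes. Fits with fewer libraries also have less power. Without both rotenone replicate 1 and DMSO replicate 4, 105 were called, beside 6.11% of all genes. With all libraries DESeq2 called 104 of the 122, beside 2.18% of all genes. The fitted log2 fold changes moved little, with a median between 0.50 and 0.56 when any 1 library was left out.

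To compare the libraries with each other, the same rule was applied to 9 libraries and the genes found were read in the library left out. The left-out values were not used in that choice, but the values of the other group against which they were read were. Such genes would lie on the side of the group more often than other genes even with no difference between the groups, so the shares below describe how the libraries differ among themselves and do not support a difference between the groups. A left-out rotenone library was on the side of its group when it exceeded the highest DMSO value, and a left-out DMSO library when it was under the lowest rotenone value. With rotenone replicates 2, 3, 4 and 5 left out, 131, 142, 148 and 164 genes were found, and 89.3%, 82.4%, 82.4% and 77.4% of them lay on the side of the group in the library left out. Rotenone replicate 1 differed: 325 genes were found without it, and 41.2% of them lay above the highest DMSO value in it. With a ratio of 1.5 in the rule, the share in rotenone replicate 1 was 54.8% of 93 genes, and that in rotenone replicates 2 to 5 was 93.1%, 71.8%, 76.2% and 70.8% of 29, 39, 42 and 48 genes. Over all genes that met the level criteria, which is not the share that no difference would give, 24.6% to 28.2% lay above the highest DMSO value in the 5 rotenone libraries.

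The sizes, read against the same DMSO values, also differed between libraries. The genes were chosen on those DMSO values, so the sizes too describe how the libraries differ and do not support a difference between the groups. Here 0.5 was added to the CPM values before the log2 ratio to the DMSO mean was taken. In the genes found without them, the left-out rotenone replicates 2 to 5 had a median log2 ratio of 0.50, 0.50, 0.42 and 0.40. The remaining 4 rotenone libraries together had 0.47 to 0.48. Left out in turn, rotenone replicate 1 had 0.11 where the other 4 had 0.46. In each case the 4 libraries kept had to meet the rule and the left-out library did not. The choice thus raises the size of the 4, and the left-out size is not on equal terms with it. Of the 325 genes, 118 were among the 122. The 191 genes in which rotenone replicate 1 lay at or below the highest control could not belong to the 122, which were chosen with it.

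Each DMSO library read in the same way lay mostly on the side of its group. The share of genes under the lowest rotenone value was 86.2% of 145 genes in DMSO replicate 1, 68.3% of 183 in replicate 2, 72.1% of 165 in replicate 3, 76.6% of 158 in replicate 4 and 85.3% of 136 in replicate 5. Over all genes that met the level criteria it was 12.8% to 19.5%. The 10 readings share libraries with each other and the genes are not independent, so no test is given.

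**Figure D4:**
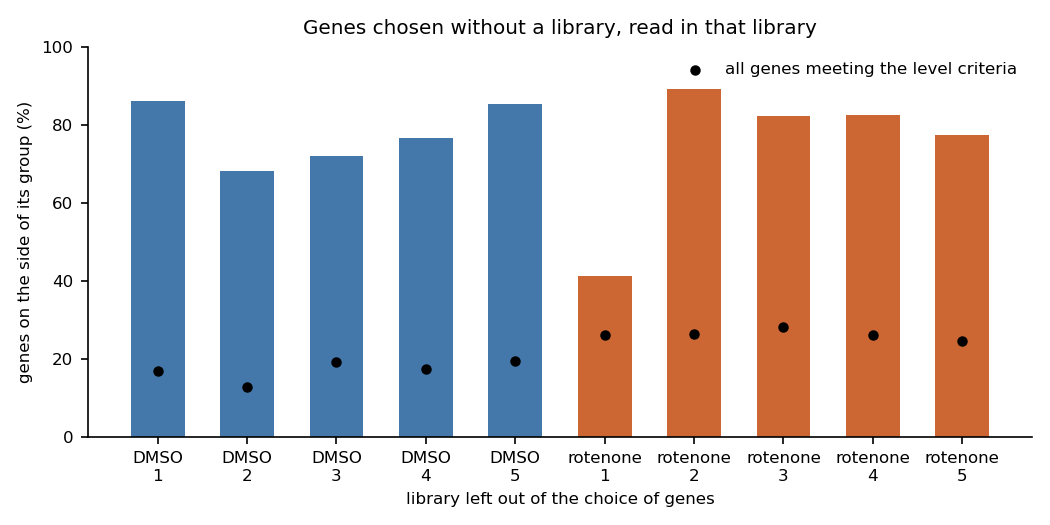
Percent of the genes found without a library that lay on the side of its group in that library (bars, DMSO in blue and rotenone in orange). Black points give the same percent over all genes that met the level criteria, which is not the percent that no difference would give. The bar of rotenone replicate 1 stands at 41.2% and the other 9 between 68.3% and 89.3%.

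Within the rotenone group, the 122 genes varied together mainly through rotenone replicate 1. The rule used these same rotenone values, so this pattern and the shared signs below describe the choice too. How much of them the choice alone gives was not tested. It held the lowest rotenone value in 71 of the 122 genes (58.2%) and the highest in 7. Over the 18028 genes it held the lowest in 32.6% and the highest in 30.9%. Rotenone replicate 3 held the lowest value in 4 of the 122 (3.28%) and the highest in 32 (26.2%). Over the 18028 genes these shares were 15.8% and 17.5%. Positions were taken on log2 CPM, where 0 is the mean of the DMSO values and 1 that of the other 4 rotenone libraries. Rotenone replicate 1 had a median position of 0.694, and it lay nearer the DMSO mean in 45 of the 122 genes. Rotenone replicates 2 to 5, each placed likewise, had medians of 1.06 to 1.11 and lay nearer the DMSO mean in 5, 1, 7 and 3 genes. The mean they were placed against includes the low rotenone replicate 1, which raises their positions. They are thus not on the same scale as the 0.694.

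The position of rotenone replicate 1 varied with the size of the ratio, to which it contributes itself. Its median position was 0.926 in the 8 genes with a ratio of 2 or more, 0.743 in the 23 between 1.5 and 2, and 0.601 in the 91 below. It lay nearer the DMSO mean in 0, 6 and 39 of these genes.

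A principal component analysis was made of log2(CPM + 0.5) after each gene was centred on its group means and scaled to an SD of 1. The first component held 26.9% of the variance of the 122 genes, and 99 of them had the same sign on it. Rotenone replicate 1 scored -1.32 per gene, rotenone replicates 2 to 5 scored 0.27 to 0.46 and the DMSO libraries -0.28 to 0.28. Over the 18028 genes the first component held 32.5%, with rotenone replicate 1 again the most extreme library, but genes were split between the signs, 48.2% and the rest. Without rotenone replicate 1 the first component of the 122 genes held 21.1%, and 68 of them (55.7%) shared a sign. That of the 18028 genes then held 24.0%, with 53.0% sharing a sign. Over 7381 pairs of the 122 genes, the Pearson correlation of the 10 centred values had a median of 0.139, where all pairs of the 18028 genes had a median of 0.00372. Leaving out rotenone replicate 1 gave medians of 0.0327 and 0.00581. These are descriptions of genes chosen with the same values, and the pairs share libraries.

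**Figure D5:**
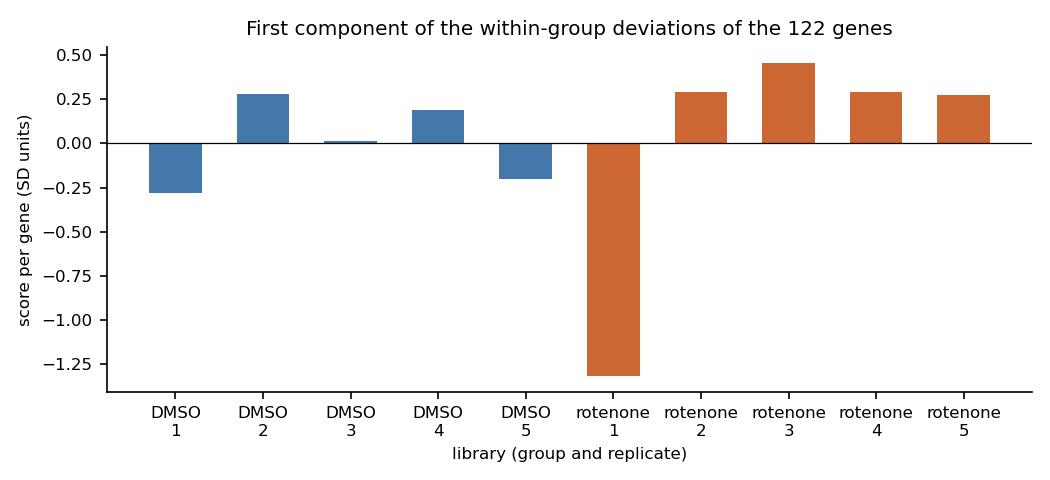
Score of each library on the first component of the within-group deviations of the 122 genes, in SD units per gene, DMSO in blue and rotenone in orange. Rotenone replicate 1 lies at -1.32 and the other 9 libraries between -0.28 and 0.46.

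Taken group by group, the 5 DMSO libraries gave a first component with 33.2% of the variance of the 122 genes, as did those over the 18028 genes with 33.2%, and 72 of the 122 shared a sign. DMSO replicate 2 was the most extreme library on it. It held the highest control value in 37 of the 122 genes (30.3%), and in 25.4% of the 18028 genes. DMSO replicates 1 and 5 held the lowest control value in 33 (27.0%) and 35 genes (28.7%). Over the 18028 genes they held it in 13.6% and 20.6%. In the rotenone libraries the first component held 43.0% and 93 genes shared a sign, where the 18028 genes had 45.1%, and rotenone replicate 1 was the most extreme library in both sets, with a score of -1.16 per gene. Without rotenone replicate 1 it held 41.0% over 4 libraries with 67 genes sharing a sign, where the 18028 genes had 38.8%. Co-variation with 1 sign in most of the 122 genes was thus seen with rotenone replicate 1 and was near an even split of signs without it. Since the choice used these values, this is not read as a trait of the genes.

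The order of the count table was not used in the choice either. Among the 122 genes were 9 pairs in adjacent rows, made up in part by 3 consecutive rows. No reference number for other sets of genes is given, so 9 is not read as many or few. The middle gene of those 3 was the one with the third highest control level, 94.0 CPM and 2685 bases, and its neighbours were of 243 and 447 bases with control levels of 5.54 and 21.7 CPM. Their ratios were 1.34, 1.42 and 1.36 in row order, and the correlations of their centred values were 0.877 and 0.927 over the 10 libraries, and 0.858 and 0.884 without rotenone replicate 1. Another pair, with control levels of 15.8 and 6.23 CPM, had a correlation of 0.939, and 0.925 without that library. Over the 9 pairs the correlation ranged from -0.157 to 0.939, and 5 pairs exceeded 0.5, as did 17.0% of all pairs of the 122 genes. With that library left out, 4 pairs exceeded it, as did 11.7% of all pairs. Of 158 other genes that stood next to 1 of the 122 and met the level criteria, 2 (1.27%) had non-overlapping groups with rotenone higher, where 1.57% of the 17906 genes outside the 122 that met the level criteria had. Both shares leave out the 122 themselves, including those in adjacent rows. They therefore do not say how often neighbours of any kind were higher. The sources used here do not say whether rows are in genome order. In libraries made without strand marks, reads from stretches where genes overlap on opposite strands cannot be assigned by strand. Adjacent members may therefore not be separate readings. Whether any adjacent members share reads was not tested.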

How the data were processed

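Per the labels' protocols, total RNA was used with the TruSeq RNA Library Preparation Kit v2, which does not mark strand. Counting with featureCounts 1.4.6-p4 and alignment with STAR 2.4.1d, after bcl2fastq 1.8.4, are named in the submitters' processing notes; the sources used here give no genome build, annotation or strand setting. The authors deposited whole-number read counts per gene and a table of RPKM values. In 14242 well-covered genes, the lengths implied by the deposited RPKM values varied by a median of 32.6% between libraries when each library's own total was used, and by 0.0027% when the 10 totals were taken in turn down the columns. RPKM was therefore used to recover gene lengths and as an alternative, and RPKM levels in the text were recomputed with each library's own total.

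Replicates were numbered in accession order, which pairs nothing. The p-values come from setting the difference between groups against the spread between samples, which may or may not be separate fish. CPM used unscaled column sums. The groups were compared with edgeR 4.0.16 under R 4.3.3 (filterByExpr, minimum count 10, TMM scaling, quasi-likelihood test, Benjamini-Hochberg adjustment over all 19628 genes). Standard errors are the log2 fold change divided by the root of the F statistic. DESeq2 1.42.0 and limma 3.58.1 were alternatives, and figures were drawn with matplotlib 3.10.9. The scripts were tested on simulated data. Counting errors assume independent reads, which reads without molecular identifiers may not be.

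The members, the settings and the alternatives were chosen with earlier results of these data known. The rule for named genes took the highest ratio and the highest control level by identifier, and by rank the first 10 ratios, 3 control levels and 3 margins. Marker lists were not applied, since none of the identifiers occurred among the 38438 genes of the RefSeq table (assembly NfurGRZ-RIMD1).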

Additional observations from a re-analysis of the deposited data

Results flagged for a closer look

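Dixon's test for 1 outlying value among 5 was applied to 34 groups of the values given above. For independent values chance marks about 1 in 20. Several of the groups hold values that depend on each other, such as numbers of genes per library and component scores. The marks therefore cannot be set against that rate. The test marked 6. Of these, 4 concern rotenone replicate 1: its share of counts in the 122 genes, 0.335%, its share of genes on the side of its group when left out, 41.2%, its score on the within-group component, -1.32, and the 71 genes in which it held the lowest rotenone value. These 4 values come from the same library and overlapping genes. The remaining pair concerns DMSO replicate 4, which was the highest control for Nfu_g_1_011772, at 245 CPM, and for the gene of rank 9 by ratio, at 1.76 CPM. Among single genes of the 122, the same test marked 7 in the DMSO group and 12 in the rotenone group. Of these 12, 7 were marked for a low value in rotenone replicate 1. No such numbers are given for all genes that met the level criteria, so these are not read as many or few. Over all those genes, rotenone replicate 1 held the lowest rotenone value in 32.6% and the highest in 30.9%.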

How the results depend on the processing

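The number of genes that met the rule, 122, was within 1.5 times of that under TMM or DESeq2 scaling, with no abundant genes dropped, and with a mean of 5 CPM or no minimum. It was 219 with a ratio of 1.2 and 31 with a ratio of 1.5. The deposited RPKM values, which carry the totals of other libraries, gave 20 genes, 12 of them among the 122. Leaving out 1 library gave 131 to 325 genes, the last without rotenone replicate 1. With fewer libraries non-overlap is easier to meet, so a higher number follows in part from the rule itself. An alternative chosen after seeing the data, without rotenone replicate 1 and DMSO replicate 4, gave 411, with 115 of the 122 among them.

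Of the 122 genes, 46 were called by edgeR (beside 0.316% of all tested genes) and 104 by DESeq2 (beside 2.18% of all genes). Fitted to the counts, limma-voom called 47, beside 0.295% of all genes. On the deposited RPKM, which carry the totals of other libraries, limma called 0 with a pseudocount of 0.1 or 1. There 30 and 31 had an unadjusted p under 0.05, beside 0.52% and 0.555% of all genes in this direction. Other scalings and filters in edgeR gave 37 to 55, beside 0.201% and 0.44% of all genes. Leaving out 1 library gave 11 to 108, beside 0.0558% and 5.08% of all genes, and leaving out both libraries 105, beside 6.11%; the cause was not tested, and fits with fewer samples also have less power. The median log2 fold change was 0.51, 0.38 on log2(RPKM + 1) and 0.50 to 0.56 with 1 library left out. The first within-group component held 21.1% to 30.3% with 1 library left out. The shares read in left-out libraries moved under TMM scaling by less than the spread between libraries of a group, taken without rotenone replicate 1. With a ratio of 1.5 they moved by more in rotenone replicate 1, from 41.2% to 54.8%, and in rotenone replicates 3, 4 and 5, to 71.8%, 76.2% and 70.8%; the cause was not tested. The call of Nfu_g_1_003210 was lost with the deposited RPKM, and that of Nfu_g_1_011772 there and without any 1 of 5 libraries. Genes under 2 CPM rest on as few as 11 counts in a library. No paired analysis was possible because the labels give no shared number, and replicates were numbered by accession.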

Other observations

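Of the 18028 genes that met the same level criteria, 404 (2.24%) had non-overlapping groups with rotenone higher and 293 (1.63%) with rotenone lower. At a ratio of group means of at least 1.3 the order turned, with 122 higher and 200 lower genes. The difference between the directions was not tested.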
